A study of Mus musculus with 48 samples.

Results

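The genes described here are the nuclear-encoded genes of oxidative phosphorylation. They were taken by name alone: every listed gene beginning with Ndufa, Ndufb, Ndufc, Ndufs, Ndufv, Cox4 to Cox8, Uqcr or Atp5, together with Sdha, Sdhb, Sdhc, Sdhd and Cycs, leaving out pseudogene and Riken names. The rule found 89 genes among the 15304 of the hippocampus and 88 among the 15263 of the frontal cortex. Cox6b2 was listed in the hippocampus only. By role, 35 were subunits of complex I, 7 were complex I assembly factors, 4 belonged to complex II, 8 to complex III, 17 to complex IV and 15 to ATP synthase. The electron carrier Cycs and the factors Atp5s and Atp5sl, which carry an ATP synthase name, made up the rest. Every one of them passed the filter on low counts in each tissue where it was listed.

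Oxidative phosphorylation takes place in the inner mitochondrial membrane. Complexes I and II feed electrons from NADH and succinate into the chain, complex III passes them to cytochrome c, complex IV hands them to oxygen, and ATP synthase uses the resulting proton gradient to make ATP. Most subunits are encoded in the nucleus and imported, and neurons depend heavily on this pathway because synaptic transmission and ion pumping consume ATP continuously.

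The study sequenced polyA-selected RNA of 2 brain regions, hippocampus and frontal cortex, in male C57BL/6 mice aged postnatal day 63 to 91. Over 3 days the mice were exposed to either a control environment or a stress environment, and were injected intraperitoneally 60 minutes after each session with vehicle or esomeprazole, a proton pump inhibitor used against gastric acid. The brain regions were collected 12 hours after the final injection. In each tissue the 4 combinations (Non-stress vehicle, Non-stress esomeprazole, Stress vehicle and Stress esomeprazole) had 6 libraries each, 48 in all. The design text gives the dose as 2 mg/kg, whereas the treatment protocol prints 2 g/kg. The control mice were injected as well, so no group was free of handling and injection. The labels do not say which hippocampal and cortical libraries came from one mouse.

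Libraries held 25.3 M to 42.0 M reads assigned to genes in the hippocampus (median 34.5) and 27.6 M to 41.5 M in the frontal cortex (median 33.7). The no-feature share is the reads that the submitters' counting assigned to no feature, as a percent of all reads listed. Which parts of a gene were counted as a feature is not given, so these reads need not lie outside genes. The share ranged from 5.03% to 20.6% in the hippocampus (median 17.7%) and from 4.50% to 19.9% in the frontal cortex (median 18.2%). It was under 12% in 5 hippocampal libraries (2 of Non-stress vehicle and 1 of each other group) and in 7 cortical libraries (1 of Non-stress vehicle and 2 of each other group). Every group thus held such libraries, but the shares were not equal between groups. The cortical Stress esomeprazole median was 16.1%, against 18.1% to 19.1% in the other cortical groups. The lowest hippocampal share was 11.5% in Stress esomeprazole and 5.03% to 6.12% in the other groups. In the libraries under 12% the share of reads that mapped to several places was also lower. It was 3.67% to 5.68% against 4.82% to 7.74% in the hippocampus and 3.36% to 4.90% against 4.03% to 7.30% in the frontal cortex. Marker genes of microglia summed to 592 to 1170 CPM (counts scaled to a common library size) in the hippocampal libraries under 12% and to 356 to 510 in the others, without overlap. Corresponding cortical ranges were 552 to 1144 and 328 to 465, again without overlap. Marker sums of astrocytes were lower in the libraries under 12%, with medians of 3496 against 5018 CPM in the hippocampus and 2360 against 4328 in the frontal cortex. Those of oligodendrocytes were higher, with medians of 7879 against 5608 and 3646 against 2561, and both lists overlapped between the libraries. Hippocampal neuron markers in the hippocampus summed to 875 to 1515 CPM under 12% and to 209 to 827 in the others, without overlap. In the frontal cortex the 8 markers of the same list found there had medians of 361 against 233, with overlap. General neuron markers overlapped in both tissues and went opposite ways. Their medians were 8311 under 12% against 6478 in the hippocampus and 7582 against 8202 in the frontal cortex. None of these markers was at 0 in all libraries. In these tissue samples a smaller number of cells of one type cannot be told apart from less RNA in each cell. Nor can either be told apart from the change of most genes with the no-feature share (83.9% and 83.7% of all genes called, below). Over all libraries the labelled tissues carried their own markers: 7 of 8 hippocampal neuron markers were higher in the hippocampus and 6 of 8 cortical excitatory markers were higher in the frontal cortex (limma). Libraries differed in regional markers. Among hippocampal libraries from 12% up, striatal markers reached 3155 CPM against a median of 231, and choroid plexus markers ran from 188 to 8045. Hippocampal neuron markers fell to 209 there, summed over 10 markers. In the cortical libraries from 12% up they summed to 166 to 312, but over the 8 markers listed in that tissue, so these sums are not directly comparable. Olfactory bulb markers ran from 48.8 to 2364 in those cortical libraries.

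Per length, ATP synthase and complex IV held the highest members. Levels are given here as RPKM (reads per kilobase of transcript, at a common library size), scaled within each tissue, as the lowest, median and highest of the 24 libraries. Atp5b, the catalytic beta subunit of the ATP synthase head, reached 564, 610 and 1696 in the hippocampus and 562, 632 and 1800 in the frontal cortex. Its partner Atp5a1, the alpha subunit, reached 327, 355 and 784 in the hippocampus. The upper ends lay far from the medians, so a few libraries were high while most sat close to the lowest value. The lowest members of ATP synthase were Atp5g2, 1 of the 3 genes that encode the same c-ring subunit, with a median of 60.2, and Atp5l, a membrane subunit, with 8.0. Small subunits of this pathway are known to have processed pseudogenes, and reads shared with such copies can be lost, so low levels such as those of Atp5l and Ndufb4 are uncertain.

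In complex IV, Cox4i1, the common form of the regulatory subunit 4, stood at 439, 526 and 2692 in the hippocampus and at 481, 559 and 2493 in the frontal cortex. Cox8a, a small structural subunit, followed with medians of 468 and 481. Cox4i2, the form of subunit 4 known from lung, had medians of 1.95 and 2.51 and was the lowest of the complex. Ndufa4l2, a hypoxia-induced relative of Ndufa4, had medians of 2.56 and 2.83. These 2 genes were therefore low in every library, with highest values of 11.6 for Ndufa4l2 and 9.63 for Cox4i2.

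The highest subunits of complex I were Ndufb9 and Ndufb8, accessory subunits of the membrane arm, with hippocampal medians of 185 and 176. Its lowest were Ndufab1, the mitochondrial acyl carrier protein, with 14.8 and Ndufb4 with 8.35. The assembly factors, which help build complex I without staying in it, had medians from 23.1 for Ndufaf5 and 21.7 for Ndufaf7 down to 8.95 for Ndufaf4 and 4.68 for Ndufaf6. In complex II the catalytic flavoprotein Sdha led with 149.9, followed by the iron-sulfur subunit Sdhb with 90.7, and the membrane anchors Sdhd and Sdhc had 71.5 and 24.1. In complex III the hinge protein Uqcrh led with 284 and Uqcr11, a small subunit, followed with 193, while the core protein Uqcrc2 and the Rieske protein Uqcrfs1 were lowest with 111 and 68.6. Cycs stood at 22.6, and the factors Atp5sl and Atp5s at 17.2 and 9.02. The median over the members' mean levels was 223 for ATP synthase, 200 for complex III, 193 for complex IV, 105 for complex II, 94.9 for complex I and 17.1 for the assembly factors in the hippocampus. Frontal cortex gave 226, 198, 203, 108, 93.6 and 15.4 for the same complexes. Complexes III and IV changed places, but the median of complex IV was over 17 genes in the hippocampus and 16 in the frontal cortex. The low Cox6b2 was listed in the hippocampus only, so this order was not compared over the same genes.

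Tissue-restricted isoforms were minor in both regions. The level of Cox4i2 was 0.360% of that of Cox4i1 in the hippocampus and 0.383% in the frontal cortex (medians of 24 libraries). Cox6a2, the heart and skeletal muscle form of subunit 6a, was at 1.31% and 1.33% of Cox6a1, and Cox7a1, likewise a muscle form, at 2.08% and 1.90% of Cox7a2. Cox6b2, a testis form, was at 1.34% of Cox6b1 in the hippocampus. Among the c-ring genes Atp5g1 was at 74.1% and 64.4% and Atp5g2 at 25.02% and 27.2% of Atp5g3. The ratio of Ndufa4l2 to Ndufa4 had medians of 0.921% and 1.00% but reached 7.77% in the hippocampus and 6.41% in the frontal cortex. Single libraries thus departed from the common ratio most for this pair. Cox8b was not analysed here.

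**Figure D1:**
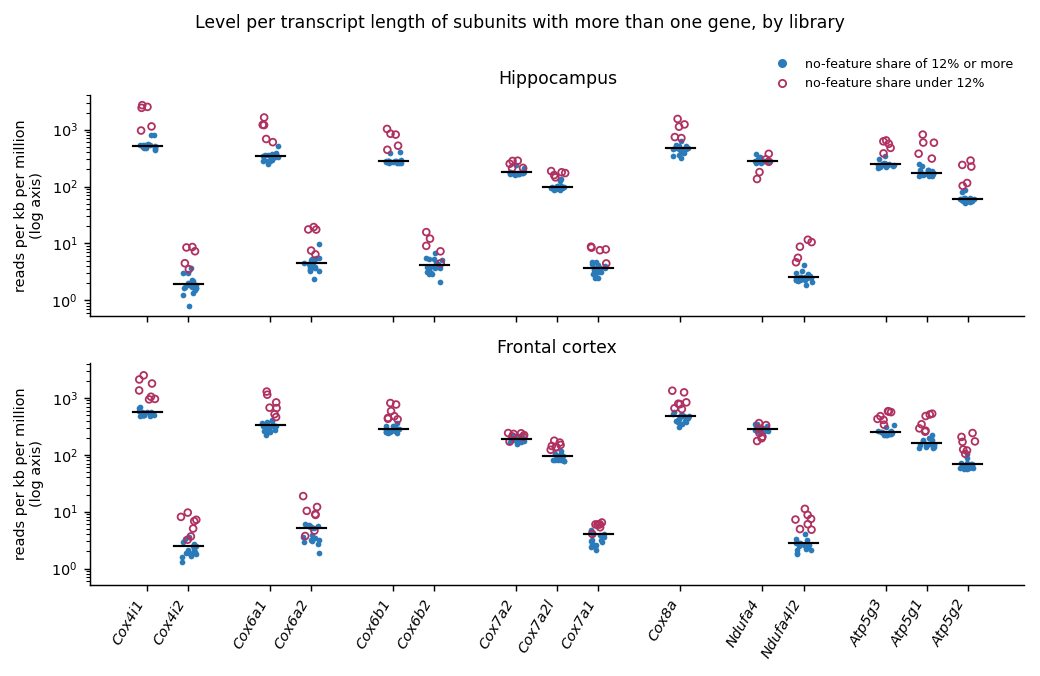
Levels per length of the isoform sets in the 48 libraries, in RPKM on a log axis, each point 1 library (open circles for a no-feature share under 12%) and each bar the median of a tissue. Cox4i2, Cox6a2, Cox7a1 and Ndufa4l2 lie far below Cox4i1, Cox6a1, Cox7a2 and Ndufa4, while the 3 c-ring genes lie closer together.

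The sum of all members differed between libraries along the no-feature share. In the hippocampus the members took 1.41% to 1.93% of the gene reads in the 5 libraries under 12% (median 1.88%) and 0.982% to 1.47% in the other 19 (median 1.07%), and these ranges overlapped. Cortical libraries gave 1.39% to 2.01% in the 7 libraries under 12% (median 1.58%) and 0.984% to 1.38% in the other 17 (median 1.04%), without overlap. Within the groups the lowest, median and highest shares in the hippocampus were 0.996%, 1.08% and 1.89% for Non-stress vehicle and 0.982%, 1.06% and 1.93% for Non-stress esomeprazole. They were 0.990%, 1.05% and 1.88% for Stress vehicle and 1.06%, 1.09% and 1.41% for Stress esomeprazole. Each group thus had a similar median and at least 1 high library. In the frontal cortex the 4 groups, in the same order, had medians of 1.06%, 1.06%, 1.08% and 1.23%, with highest values of 1.72%, 1.67%, 2.01% and 1.58%.

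**Figure D2:**
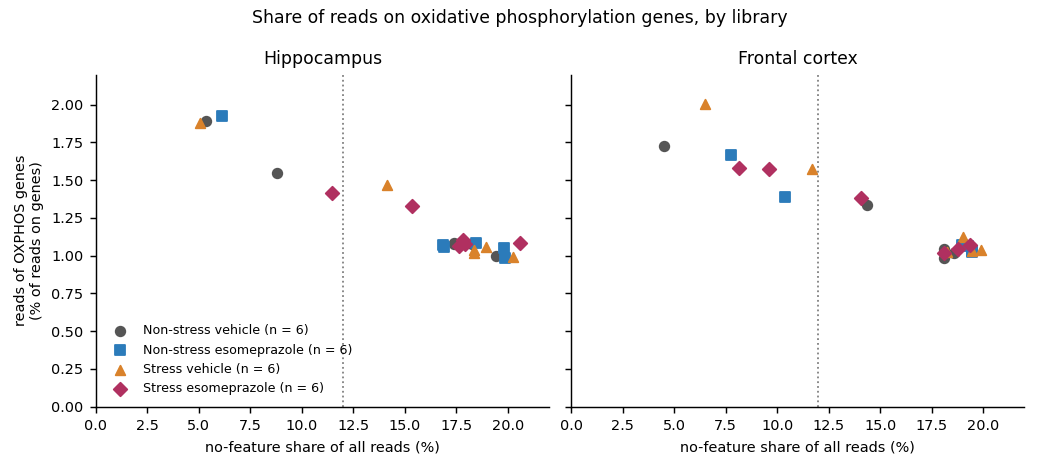
Percent of gene reads taken by the oxidative phosphorylation genes against the no-feature share, in percent, 1 panel per tissue and 1 point per library, coloured by group. The 12 libraries under a no-feature share of 12% carry the high member shares, up to 1.93% in the hippocampus and 2.01% in the frontal cortex, and come from all 8 groups.

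Gene by gene, most members were higher in the libraries with a low no-feature share, and a small set was lower there. Of the 89 members in the hippocampus, 52 were above all other libraries in every library under 12%, against 21.5% of all genes, and 3 were below them, against 20.7% of all genes. Those 3 were Ndufaf7, Ndufaf4 and Cox7b, a structural subunit of complex IV. Of the cortical members 51 of 88 were above, against 17.9% of all genes, and 4 were below, against 19.9%: Ndufs1, the largest subunit of the peripheral arm of complex I, Uqcrb, a small complex III subunit, Ndufs4, an accessory complex I subunit, and Ndufaf4. The ratio of the median under 12% to the median of the other libraries had a median over members of 2.34 in the hippocampus (range 0.256 to 4.79) and of 1.72 in the frontal cortex (0.155 to 3.44).

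The relation was tested for every gene as a slope, the log2 change of the normalised reads for each additional percentage point of no-feature share, fitted with the 4 groups of the tissue (limma, Benjamini-Hochberg over all genes, threshold 0.05). In the hippocampus 84 of 89 members were called, where 83.9% of all genes were called. The direction was uneven, with 75 members lower as the share rose, against 41.2% of all genes, and 9 higher, against 42.7%. For the cortex 80 of 88 members were called, where 83.7% of all genes were. There 69 fell, against 41.6% of all genes, and 11 rose, against 42.1%. The median slope of the members was -0.099 in the hippocampus and -0.089 in the frontal cortex, while that of all genes was 0.0031 and -0.00046. Adding the share to the groups lowered the median residual SD of the members from 0.53 to 0.17 on the log2 scale in the hippocampus, with a smaller SD for 87 of 89 members, and from 0.52 to 0.17 in the frontal cortex, with a smaller SD for 85 of 88. Over all genes the median fell from 0.51 to 0.24 and from 0.54 to 0.26. The SD was smaller for 13928 of all 15062 genes in the hippocampus and for 13918 of all 15040 in the frontal cortex, so most genes shared this.

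The relation was weaker without the libraries of low share. Among the 19 hippocampal libraries from 12% up, 70 members were still called, 68 of them lower and 2 higher, while 6940 of 15098 genes were called, and the median member slope was -0.081. Among the 17 cortical libraries from 12% up, 53 were called, 48 lower and 5 higher, of 6626 called genes in 15050, with a median slope of -0.061. These sets still held 2 libraries per tissue between 12% and 16%. Without those as well, 3 members were called in the 17 remaining hippocampal libraries (median slope -0.020, 1930 genes called), whose shares spanned 16.9% to 20.6%. They were Sdhc, Cox8a and Ndufc1, all lower. No member was called in the 15 cortical ones (median slope -0.0098), whose shares spanned 18.1% to 19.9%, and there limma called 0 genes and no member had an unadjusted p under 0.05. The fit within the libraries under 12% had 5 and 7 libraries for 4 groups and a slope, too few for a usable estimate. Below a share of 16% lay 7 of 24 hippocampal and 9 of 24 cortical libraries, and with them removed little of the range of the share was left.

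By complex, the negative slopes were shared by complexes I, III and IV and ATP synthase and were near 0 in the median of the assembly factors. In complex I, 32 of 35 subunits fell and 2 rose in the hippocampus (median -0.11), and 30 fell and 3 rose in the frontal cortex (median -0.10). In ATP synthase 14 of 15 fell and none rose in the hippocampus (median -0.10), and 13 fell and 2 rose in the frontal cortex (median -0.086). In complex IV 15 of 17 fell and 2 rose in the hippocampus (median -0.11), and 13 of 16 fell and 1 rose in the frontal cortex (median -0.095). Complex III had 7 of 8 lower and 1 higher in the hippocampus (median -0.086) and 6 lower and 1 higher in the frontal cortex (median -0.072). Complex II had 3 of 4 lower in both tissues, with medians of -0.075 and -0.066, and its catalytic subunit Sdha was not called. The 7 assembly factors split into 3 lower and 2 higher in both tissues, with medians of -0.010 and 0.0014.

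Within the complexes, the classes of subunit had negative median slopes. The 7 catalytic core subunits of complex I had a median slope of -0.12 and its 28 supernumerary subunits one of -0.11 in the hippocampus. In complex IV the 11 common subunits had a median of -0.098 and the 5 alternative isoforms one of -0.15. In ATP synthase the F1 head, the c ring and the stalk and membrane part had medians of -0.10, -0.14 and -0.096, and in the frontal cortex of -0.11, -0.12 and -0.078. No test compared these classes.

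**Figure D3:**
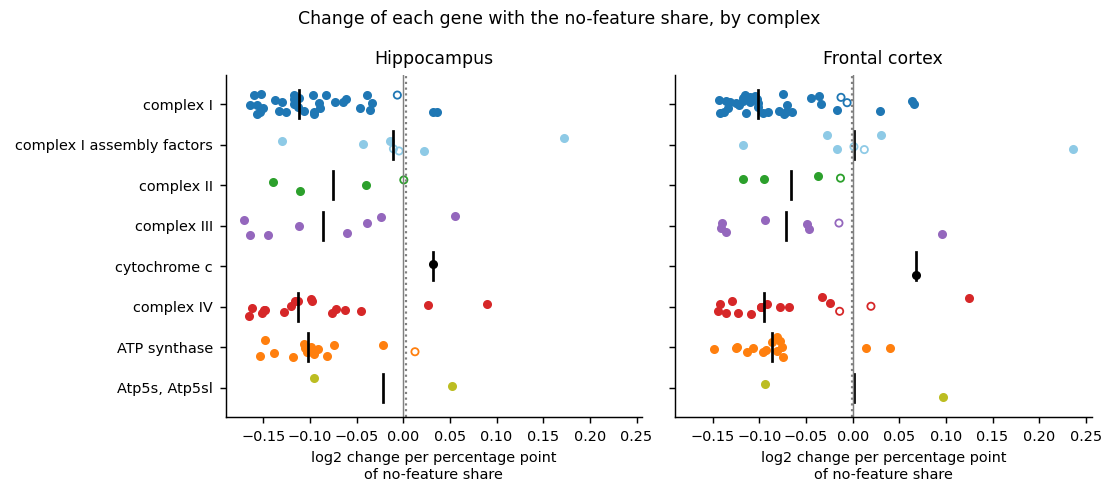
Slope of each member, as log2 change per percentage point of no-feature share, by complex and tissue, with 1 point per gene, called genes filled, bars at the medians and a dotted line at the median of all genes. Most points of complexes I, III, IV and ATP synthase lie below 0, with Ndufaf4 the highest point of both tissues at 0.17 and 0.24.

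The strongest negative slopes were led by Uqcr11 and Cox4i1. Cox4i1 had 24883, 62424 and 69481 normalised reads (lowest, median, highest) in the hippocampal libraries under 12% and 11324, 13040 and 20793 in the others, a ratio of medians of 4.79 without overlap. Its slope was -0.17 ± 0.0090 (SE; limma adjusted p = 3.18e-13). Uqcr11 had 5576, 12909 and 16982 normalised reads under 12% and 2312, 2914 and 4209 in the others, again without overlap, with the lowest hippocampal slope of all members, -0.17 ± 0.0085 (limma adjusted p = 1.44e-13). Uqcrq, a subunit of complex III, Ndufb7 and Ndufa13, accessory subunits of complex I, and Cox4i2 followed with -0.16 each. The ranges of Uqcrq, Ndufb7 and Ndufa13 did not overlap either, whereas those of the lowly expressed Cox4i2 did.

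In the frontal cortex the 6 lowest slopes were those of Atp5d, the delta subunit of the ATP synthase head, at -0.15 ± 0.0079 (limma adjusted p = 1.50e-13), and Cox4i2, Ndufb7, Ndufa11, Cox4i1 and Uqcr11 at -0.14 each. Atp5d had 9133, 15123 and 22200 normalised reads under 12% and 3963, 5009 and 6468 in the other libraries, without overlap. Ndufa11, a membrane-arm subunit of complex I, had 3582, 6025 and 9346 against 1823, 2015 and 2932, also without overlap. Of these genes Cox4i1, Cox4i2, Ndufb7 and Uqcr11, were among the 6 lowest of both tissues.

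The opposite direction was led by Ndufaf4, an assembly factor of complex I. It had 199, 298 and 411 normalised reads in the hippocampal libraries under 12% and 623, 1165 and 1527 in the others, and 107, 176 and 320 against 474, 1131 and 1423 in the frontal cortex. Neither tissue had overlap, the ratios of medians were 0.256 and 0.155, and the slopes were 0.17 ± 0.014 (limma adjusted p = 1.74e-10) and 0.24 ± 0.014 (limma adjusted p = 1.16e-12). Cox7b had 1112, 1906 and 2956 under 12% and 3309, 4246 and 4575 in the other hippocampal libraries, without overlap, and slopes of 0.090 and 0.12 in the 2 tissues. Uqcrb (0.055 and 0.095), Atp5s (0.052 and 0.097) and Cycs (0.032 and 0.068) rose with the share in both tissues. Ndufs1 (0.036) completed the 6 highest in the hippocampus and Ndufs4 (0.065) in the frontal cortex. Among the hippocampal libraries from 12% up the slopes of Cox7b (0.020, limma adjusted p = 0.249), Atp5s (0.021, adjusted p = 0.425), Cycs (0.027, adjusted p = 0.104) and Ndufs1 (0.022, adjusted p = 0.0796) were not called, nor was that of Ndufs4 in the cortical ones (-0.00069, adjusted p = 0.968). From 16% up the cortical slopes of Ndufaf4, Cox7b, Atp5s and Cycs were negative and none of them was called.

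Genes of the same complex could therefore run in opposite directions. Ndufv1, the NADH-binding subunit of complex I, had 8955, 16137 and 18659 normalised reads under 12% and 4832, 5608 and 7609 in the other hippocampal libraries, without overlap. Ndufs1, which lies next to it in the electron path, had 2179, 3315 and 4525 against 4020, 4612 and 5069, with overlap. Their slopes were -0.12 and 0.036 in the hippocampus and -0.12 and 0.064 in the frontal cortex, all called. In complex III, Uqcrc1, a core protein, had slopes of -0.15 and -0.14, opposite in sign to those of Uqcrb. Sdha had 10213, 15015 and 18688 under 12% against 13796, 15067 and 19030 in the hippocampus, ranges that overlapped although the lowest value came from a library under 12%, and slopes of 0.00063 and -0.013 that were not called. Atp5b had slopes of -0.10 and -0.11.

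The slopes of the 2 tissues were alike. Across the 88 members listed in both, Pearson's r between the tissues was 0.98 and Spearman's rho 0.97, 83 members had the same sign, 68 were called lower and 8 called higher in both. Atp5j, a stalk subunit of ATP synthase, was the 1 member called in opposite directions, at -0.021 in the hippocampus and 0.014 in the frontal cortex. Across all 14752 genes tested in both tissues r was 0.97 and rho 0.98, and 14032 had the same sign. Of these genes 5765 were called lower and 5897 higher in both tissues, and 7 were called in opposite directions. The likeness was thus not particular to these members. Genes are not independent replicates, and the 2 tissues share their library preparation as far as the labels say.

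The sequences below show members from both ends of the hippocampal slopes, whose relation to G and C content across genes is given after them. Each is the middle 120 bases of the coding sequence in the GENCODE vM21 annotation of the mouse genome, 5′ to 3′, with G and C in capitals. Uqcr11 (chromosome 10), Cox4i1 (chromosome 8) and Uqcrq (chromosome 11) had strongly negative slopes, and Ndufaf4 (chromosome 4), Cox7b (chromosome X) and Uqcrb (chromosome 13) positive ones.
Uqcr11: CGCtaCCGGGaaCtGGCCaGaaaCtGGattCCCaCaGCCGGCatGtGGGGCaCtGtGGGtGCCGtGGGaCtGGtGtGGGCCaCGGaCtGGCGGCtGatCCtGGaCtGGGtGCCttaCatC
Cox4i1: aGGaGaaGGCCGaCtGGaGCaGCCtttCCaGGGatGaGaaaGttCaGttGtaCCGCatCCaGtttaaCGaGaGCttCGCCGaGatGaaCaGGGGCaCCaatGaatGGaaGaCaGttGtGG
Uqcrq: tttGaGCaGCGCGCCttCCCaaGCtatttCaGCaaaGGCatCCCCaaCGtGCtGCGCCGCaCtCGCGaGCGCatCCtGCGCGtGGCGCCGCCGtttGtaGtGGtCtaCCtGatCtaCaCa
Ndufaf4: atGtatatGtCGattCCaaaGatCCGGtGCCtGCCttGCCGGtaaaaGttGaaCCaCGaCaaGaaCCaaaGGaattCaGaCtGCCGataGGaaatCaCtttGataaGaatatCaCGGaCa
Cox7b: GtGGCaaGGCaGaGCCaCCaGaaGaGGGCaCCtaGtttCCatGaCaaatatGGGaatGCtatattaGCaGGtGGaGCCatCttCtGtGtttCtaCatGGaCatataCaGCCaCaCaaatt
Uqcrb: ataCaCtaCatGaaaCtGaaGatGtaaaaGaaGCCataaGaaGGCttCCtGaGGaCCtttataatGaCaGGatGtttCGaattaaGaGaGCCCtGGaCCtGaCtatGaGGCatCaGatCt

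In the printed stretches G and C made up 65.0% of the bases in Uqcr11, 52.5% in Cox4i1 and 60.8% in Uqcrq, and 43.3% in Ndufaf4, 45.8% in Cox7b and 40.8% in Uqcrb. Over the whole transcript the G and C content was 58.9%, 57.6% and 57.8% for the first set and 39.5%, 42.0% and 42.2% for the second. In Cox4i1 the untranslated parts held more G and C (66.4%) than the coding part (53.5%).

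Across the members, the slope and the G and C content of the transcript were related, with Spearman's rho -0.83 and Pearson's r -0.81 in the hippocampus (89 genes) and -0.84 and -0.80 in the frontal cortex (88 genes). The same relation held across all genes with a sequence, with rho -0.77 over 14473 genes in the hippocampus and -0.80 over 14464 in the frontal cortex. These are relations across genes of the same libraries, given as descriptions. The coding part gave rho -0.81 and -0.82 and the non-coding part -0.65 in both tissues. Transcript length was more weakly related, with rho 0.33 and 0.25 over members and 0.34 and 0.30 over all genes.

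At a like G and C content the members still had lower slopes than the average gene. Of the members with 45% to 50% G and C, 20 of 24 had a negative slope in the hippocampus, against 24.8% of all genes of that class. Their median was -0.061 where all genes of that class had 0.051. From 50% to 55% all 27 members were negative, against 66.4% of all genes, with a median of -0.10 against -0.032. From 55% to 60% all 24 were negative, against 89.0% of all genes, with a median of -0.14 against -0.081. The members' transcripts were short, with a median of 861 bases against 2833 over all genes. Among transcripts under 1000 bases the medians of members and of all genes were -0.079 and 0.0083 at 45% to 50%, -0.11 and -0.069 at 50% to 55%, and -0.15 and -0.12 at 55% to 60%. The frontal cortex gave -0.045 and 0.030, -0.089 and -0.059, and -0.13 and -0.10 for the same classes. The gap was thus smaller among short transcripts in these classes, and no test of it was made. What the no-feature share, the base composition and the cell type markers contribute to the slopes was not tested.

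**Figure D4:**
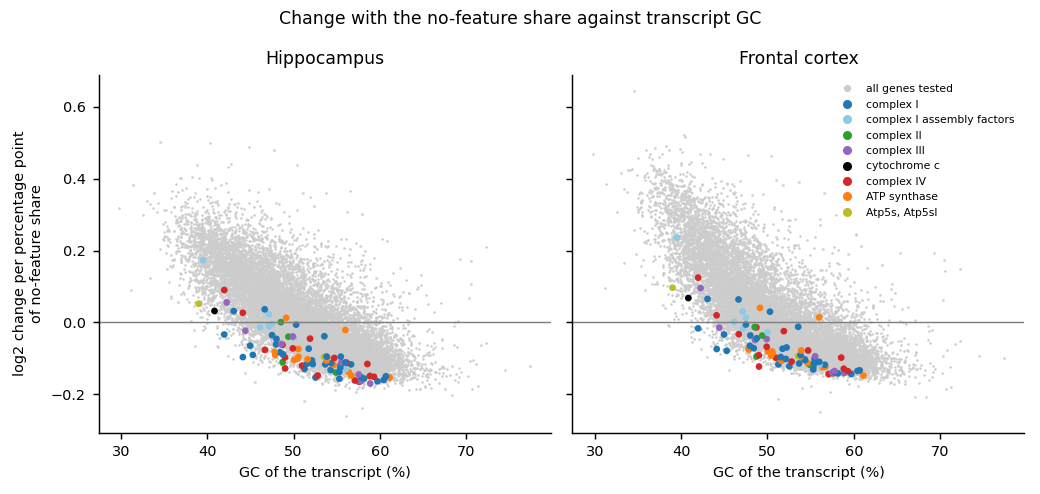
Slope on the no-feature share, as log2 change per percentage point, against the G and C content of the transcript in percent, with members as coloured points over all genes in grey, 1 panel per tissue. Members follow the downward course of all genes, from Ndufaf4 near 39.5% with a positive slope to Atp5d near 61.1% with a negative one.

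Promoters were examined for motifs of factors known to drive nuclear respiratory genes. RefSeq promoters on GRCm38.p6, from 250 bases before to 50 bases after the annotated start, were listed for 74 members and 11540 genes in all. The NRF1 core GCGCATGC or its reverse complement GCATGCGC, which overlap in a palindromic site, occurred in 13 members (17.57%) and in 5.087% of all promoters. The YY1 word AAGATGGC or GCCATCTT occurred in 10 members (13.51%) and in 4.307% of promoters, and the GABPA word CCGGAAGT or ACTTCCGG in 5 members (6.757%) and in 7.478%. A match is a description of these letters only. Members with the NRF1 core had a median slope of -0.11 (13 genes) and those without it one of -0.097 (61 genes) in the hippocampus, and -0.10 and -0.084 in the frontal cortex. The core was present at both ends of the slopes, as the promoters of Uqcr11 (chr10:80406772-80407071, minus strand) and Ndufaf4 (chr4:24897833-24898132, plus strand) show, with the NRF1 core in capitals.
Uqcr11 promoter: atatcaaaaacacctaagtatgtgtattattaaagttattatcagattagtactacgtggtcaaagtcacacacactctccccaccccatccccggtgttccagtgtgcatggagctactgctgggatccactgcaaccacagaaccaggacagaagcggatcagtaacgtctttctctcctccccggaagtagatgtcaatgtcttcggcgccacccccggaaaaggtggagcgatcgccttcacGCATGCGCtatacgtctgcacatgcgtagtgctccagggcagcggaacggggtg
Ndufaf4 promoter: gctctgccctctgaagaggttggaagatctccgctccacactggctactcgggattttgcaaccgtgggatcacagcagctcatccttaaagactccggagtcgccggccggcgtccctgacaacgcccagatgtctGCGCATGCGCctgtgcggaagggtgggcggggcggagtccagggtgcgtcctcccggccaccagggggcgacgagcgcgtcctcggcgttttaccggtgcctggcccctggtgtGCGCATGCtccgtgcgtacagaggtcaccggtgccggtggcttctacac

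Other genes of mitochondrial energy supply were described against the same share, where 41.2% of all genes fell and 42.7% rose in the hippocampus, and 41.6% and 42.1% in the frontal cortex. No test compared these lists with other genes. Of the mitochondrial ribosome, 65 of 77 genes fell and 10 rose in the hippocampus, and 60 fell and 10 rose in the frontal cortex. All 15 glycolysis genes tested fell in both tissues, with median slopes of -0.11 and -0.10, the lowest p belonging to the phosphoglycerate mutase gene Pgam1. Of the tricarboxylic acid cycle genes 9 of 13 fell and 2 rose in both tissues, led by the malate dehydrogenase gene Mdh2 in the hippocampus (-0.11). Of the regulators of mitochondrial biogenesis 7 of 13 rose and 3 fell in both tissues, with medians of 0.070 and 0.074. Among them the mitochondrial transcription factor Tfam had 0.13 and the nuclear receptor Esrra -0.12 in the hippocampus.

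Assembly factors outside the name rule were mixed. For complex I, 2 of 7 fell and 3 rose in the hippocampus, and 3 fell and 1 rose in the frontal cortex. Complex II factors had 1 of 4 lower and 3 higher in both tissues. Complex III factors had 4 of 6 lower and 2 higher in both tissues. Complex IV factors had 13 of 20 lower and 6 higher in the hippocampus and 11 lower and 7 higher in the frontal cortex. For the assembly and inhibition of ATP synthase, 4 of 6 fell and 2 rose in the hippocampus, and 2 fell and 2 rose in the frontal cortex. Outside mitochondria, 58 of 72 cytosolic ribosome genes fell and 6 rose in the hippocampus and 62 of 71 fell and 6 rose in the frontal cortex. Proteasome genes had 25 of 37 lower and 9 higher in the hippocampus and 25 of 38 lower and 11 higher in the frontal cortex.

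No member was called for stress, esomeprazole or their interaction in either tissue. With limma, 0 of 89 members in the hippocampus were called for the stress effect averaged over the drug, where 0.0133% of all genes (2 of 15062) were called. For the other 6 hippocampal and all 7 cortical group comparisons 0 members were called and 0% of all genes. edgeR and DESeq2 also called 0 members in each of them. At an unadjusted p under 0.05 the count of members was 1 of 89 for stress in esomeprazole mice and 0 in the other hippocampal comparisons. Among cortical comparisons it was 2 of 88 for esomeprazole averaged over stress, 4 for esomeprazole without stress and 0 in the others. Of all genes, 5.72% had such a p for stress in esomeprazole mice in the hippocampus, and 1.09% and 4.43% for the 2 cortical comparisons. Over the hippocampal comparisons without such a member it was 0.232% to 5.90% of all genes, and over the cortical ones 0.186% to 6.47%. The comparisons within a tissue share their control libraries. The replicates are labelled as separate samples, and the p-values measure the spread between them.

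Levels of the core genes overlapped between groups, as Cox4i1 and Atp5b show. Cox4i1 in the hippocampus had 11908, 13572 and 64846 normalised reads (lowest, median, highest) in Non-stress vehicle, 12652, 13232 and 69481 in Non-stress esomeprazole, 11324, 13282 and 62424 in Stress vehicle and 12226, 13727 and 24883 in Stress esomeprazole. Atp5b in the frontal cortex had 38570, 41249 and 108258 in Non-stress vehicle, 38282, 42146 and 95055 in Non-stress esomeprazole, 37387, 41314 and 119833 in Stress vehicle and 38036, 50557 and 92563 in Stress esomeprazole. The Stress esomeprazole median of Atp5b in the frontal cortex was above the other 3. In both genes all groups overlapped, and the highest value of each group came from a library under 12%. Over the 7 core genes (Ndufs1, Ndufv1, Sdha, Uqcrc1, Cycs, Cox4i1 and Atp5b) the log2 difference for averaged stress lay between -0.17 and 0.097 in the hippocampus and between -0.18 and 0.12 in the frontal cortex. For averaged esomeprazole it lay between -0.17 and 0.040 and between -0.25 and 0.038.

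As a set the members leaned slightly, and the lean depended on the libraries of low share. The median member difference for averaged stress in the hippocampus was -0.095 (74 of 89 negative) where the median of all genes was -0.0084, but it was 0.064 without the libraries under 12%. For averaged esomeprazole in the hippocampus it was -0.087 (76 of 89 negative) against -0.0067 over all genes, and 0.015 without those libraries. Of all hippocampal genes 52.2% were negative for averaged stress and 51.9% for averaged esomeprazole. In the frontal cortex the median member difference was 0.034 for averaged stress (58 of 88 positive) and -0.054 for averaged esomeprazole (74 of 88 negative). All cortical genes had medians of -0.017 and -0.026, with 53.2% and 56.0% negative. Without the libraries under 12% the cortical member medians were 0.017 and -0.036. For stress in vehicle mice the cortical median turned from 0.011 to -0.086, and for esomeprazole after stress from -0.061 to 0.064. With the share entered as a covariate instead, the median for cortical esomeprazole after stress was -0.15 against -0.042 over all genes, and 20 of 88 members (22.7%) had an unadjusted p under 0.05 against 2.77% of all genes, none of them called. The direction of that difference thus turned between these 2 ways of handling the same libraries.

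**Figure D5:**
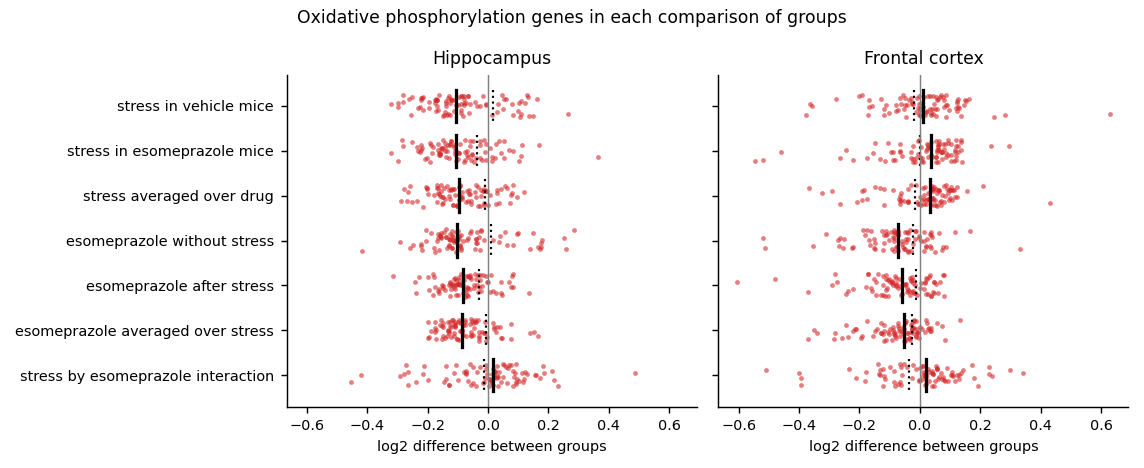
Log2 difference of each member in the 7 group comparisons of each tissue, with 1 point per gene, a bar at the median of the members and a dotted bar at that of all genes. In the hippocampus most points of the stress and esomeprazole rows lie below 0, with medians of -0.095 and -0.087 for the averaged effects, and none was called by limma.

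The members of smallest p in these comparisons had small differences. In the hippocampus Ndufa5, a subunit of the complex I peripheral arm, had 2057, 2269 and 3114 normalised reads in Non-stress esomeprazole and 1728, 2083 and 2192 in Stress esomeprazole, with overlap, a difference of -0.22 ± 0.10 (limma adjusted p = 0.813). In the frontal cortex Ndufa1, a small membrane-arm subunit, differed by -0.26 ± 0.090 for averaged esomeprazole (limma adjusted p = 0.999). It had 1258, 1442 and 1875 normalised reads in Non-stress vehicle and 1289, 1429 and 1965 in Stress vehicle. The esomeprazole groups had 919, 1255 and 1365 without stress and 1097, 1268 and 1433 after it. Vehicle and esomeprazole libraries overlapped. The assembly factor Ndufaf2 differed by -0.37 ± 0.15 in the same comparison (limma adjusted p = 0.999), with medians of 467 and 359 in the vehicle groups and 323 and 291 in the esomeprazole groups.

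Ndufa4l2 in the frontal cortex was the member whose call depended on the model. It had 59.3, 70.2 and 242 normalised reads in Non-stress vehicle and 82.9, 99.4 and 363 in Stress vehicle, and the groups overlapped. The stress difference in vehicle mice was 0.63 ± 0.42 (limma adjusted p = 0.853). With the share entered as a covariate it was 0.68 ± 0.12 and was called (limma adjusted p = 0.0328), 1 of 4 genes called there. With the olfactory bulb marker score added as a further covariate it was 0.67 (limma adjusted p = 0.297) and not called.

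The remaining comparisons were described by their members of smallest p. For averaged stress in the hippocampus these were Sdha (0.097) and Ndufaf1 (0.077) upward and Ndufa5 (-0.085) and Ndufb4 (-0.29) downward, all with a limma adjusted p of 1.00. For the interaction of stress and esomeprazole they were Ndufaf5 (0.17) and Cox4i2 (0.49) upward and Ndufa5 (-0.27) and Atp5f1 (-0.26) downward in the hippocampus. For the cortex they were Uqcrc2 (0.24) and Ndufaf1 (0.23) upward and Ndufa6 (-0.21) and Atp5l (-0.40) downward. None of these passed the threshold. The genes of the other lists (assembly factors, biogenesis regulators, tricarboxylic acid cycle, glycolysis, ribosomes and proteasome) likewise had 0 called in each of the 14 comparisons, with limma.

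Between the tissues, few members differed. Fitted over all 48 libraries, 4 of 88 members (4.55%) were called, all higher in the hippocampus, where 25.7% of all genes were called, 12.0% higher and 13.8% lower. Ndufa5 had levels per length of 57.0, 71.2 and 103 in the hippocampus and 30.1, 58.3 and 77.2 in the frontal cortex (lowest, median, highest of 24, scaled within each tissue), a log2 difference of 0.38 ± 0.066 (limma adjusted p = 1.56e-05). Cox6c, a small subunit of complex IV, had 283, 347 and 697 against 266, 317 and 485 and a difference of 0.22 ± 0.083 (limma adjusted p = 0.0471). The ranges of the tissues overlapped for both genes. Ndufaf1, an assembly factor of complex I, had medians of 12.9 and 11.9 and a difference of 0.15 ± 0.055 (limma adjusted p = 0.0433). Atp5j had medians of 158 and 154 and a difference of 0.14 ± 0.050 (limma adjusted p = 0.0329). The median difference over the members was 0.036 against 0.017 over all genes, with 51 of 88 positive, and the core genes lay between -0.15 and 0.16.

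These calls moved with the model. With the share entered as a covariate 26 of 88 members were called, 22 higher in the hippocampus and 4 lower (Atp5sl, Cox5a and Atp5a1 among them). That was a smaller part than among all genes, of which 7439 of 14844 were called. Without the libraries under 12%, 12 members were called, all higher, of 6603 genes. With the mean log2 levels of the striatal and of the olfactory bulb markers as separate covariates 0 members were called, of 2617 genes. In that fit 1 member had an unadjusted p under 0.05. Bulb markers themselves differed between the tissues, so the fit cannot separate them from the tissue difference. Markers of other cells also differed between the tissues: all 8 oligodendrocyte markers and 7 of 8 choroid plexus markers were higher in the hippocampus and 8 of 9 olfactory bulb markers were higher in the frontal cortex. The part of these markers in the member differences was not tested.

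Neither treatment effect was shown to differ between the tissues. For the stress effect, 0 of 88 members and 0% of all genes were called for a difference between hippocampus and frontal cortex. No member had an unadjusted p under 0.05, against 3.81% of all genes. For the esomeprazole effect 0 members and 0% of all genes were called. Of all genes 0.849% had such a p, and of the 88 members 2 did, Ndufaf2 (0.44 ± 0.17) and Ndufa1 (0.30 ± 0.14). The limma adjusted p was 1.00 for both. edgeR and DESeq2 also called 0 members in each.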

How the data were processed

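RNA was polyA-selected and made into libraries with a stranded Illumina kit, and read pairs of 151 bases were sequenced, per the labels' protocols. The submitters' processing notes name STAR, HTSeq and DESeq2 and the build mm10. Versions, the strand setting and the annotation are not given in the sources used here. Reads shared by several loci, overlapping genes such as Atp5o and its neighbours, and antisense pairs could therefore be miscounted.

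The deposited values are a normalised signal: in each library every value was a whole number of reads times 1 factor. Whole reads were recovered by dividing it out, and 100% of values came out whole within a tolerance of 0.02. Rows that name no gene (the no-feature, ambiguous and multimapping rows) were kept out of library sizes and tests, and 23 gene names that a spreadsheet had turned into dates were not matched. Depth was 25.3 M to 42.0 M gene reads. The 95% Wilson interval of a member share was at most ± 0.00459 percentage points and that of a no-feature share at most ± 0.0130, counting error only.

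Reads were rescaled with TMM (edgeR 4.0.16), within a tissue or over both, filtered with filterByExpr (minimum count 10), and log2(value + 1) was fitted with limma 3.58.1 (trend) in R 4.3.3, with 1 mean per group and Benjamini-Hochberg adjustment over all genes. The scripts were tested on simulated data. Fold changes of low genes are understated on this scale. On the recovered reads, edgeR's quasi-likelihood test and DESeq2 1.42.0 were alternatives, beside another pseudocount, no low-count filter, other scalings, covariates, the replicate number as a block, and leaving out libraries under a no-feature share of 12%. Both covariates in 1 fit, and leaving out libraries under 16%, were added after seeing the data.

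Members and gene lists were chosen with earlier results of these data known. Named members were the 6 largest called differences in each direction or, where none was called, 2 members per direction by smallest p. The 7 core genes, the isoform sets and the 2 highest and 2 lowest levels of each complex were also named, and genes outside the members by at most 2 of smallest p per list. Transcript sequences came from GENCODE vM21 and promoters from RefSeq GRCm38.p6. Python 3.11.15 and matplotlib 3.10.9 were used for tables and figures.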

Additional observations from a re-analysis of the deposited data

Results flagged for a closer look

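In 72 sets of 6 libraries (the member share and the levels of 8 genes in each of the 8 groups), 26 held a library whose gap to its nearest neighbour was, as a part of the range, above Dixon's 95% critical value. Chance gives about 5% of such sets. All 26 belonged to libraries with a no-feature share under 12%, and the cause was not tested. Values below are normalised reads.

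In hippocampus Non-stress esomeprazole, replicate 4 stood apart with a member share of 1.93% and with Ndufs1 at 3180, Ndufv1 at 18099, Sdha at 10213, Uqcrc1 at 30475, Cox4i1 at 69481 and Atp5b at 104321. In hippocampus Non-stress vehicle, replicate 3 did so with Ndufv1 at 18659, Sdha at 18257, Uqcrc1 at 27478 and Cox4i1 at 64846. In hippocampus Stress vehicle, replicate 3 did so with Ndufv1 at 16137, Uqcrc1 at 24275, Cox4i1 at 62424 and Atp5b at 102114. In hippocampus Stress esomeprazole, replicate 5 was high for Ndufv1 (9392) and low for Ndufs1 (2179), Cycs (1485) and Ndufa5 (1728). In frontal cortex Non-stress vehicle, replicate 4 was high for Ndufv1 (18152), Uqcrc1 (24653), Cox4i1 (54516) and Atp5b (108258). In frontal cortex Stress vehicle, replicate 3 was high for Ndufv1 (19401), Uqcrc1 (30373) and Cox4i1 (64526). Sdha was thus low in one hippocampal library under 12% and high in another.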

How the results depend on the processing

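The group comparisons called 0 members under every alternative that was run, except that 1 member was called with the no-feature share entered as a covariate for stress in vehicle mice in the frontal cortex (Ndufa4l2). The calls on the no-feature share were within 1.5 times of 84 and 80 under the other alternatives run, but without libraries under 12% the cortical count was 53, and without libraries under 16% the counts were 3 in the hippocampus and 0 in the frontal cortex. Between tissues, 4 calls became 26 with the share entered as a covariate, 12 without libraries under 12% and 0 with the marker scores as a covariate. With the replicate number as a block 2 remained (Cox6c and Ndufa5), and the block moved no other count of calls by over 1.5 times. The numbers were not taken to pair the samples, since the labels do not say that they do. Correlations of what the group means left over cannot decide it, because they still hold the spread with the no-feature share. Same-numbered libraries correlated above 0.1 in 22 of 36 hippocampal, 23 of 36 cortical and 15 of 24 between-tissue pairs. Their median r was 0.30, 0.44 and 0.43, against 0.32, 0.088 and 0.34 for other pairs, and 7, 2 and 8 of 24 libraries correlated best with their own number.

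Without libraries under 16% these slopes changed sign: Cox7b to -0.0098 in the hippocampus, and in the frontal cortex Ndufaf4 to -0.047, Cox7b to -0.068, Atp5s to -0.0077, Cycs to -0.034, Ndufb7 to 0.012, Ndufa11 to 0.0046 and Cox4i1 to 0.0084. Without libraries under 12% the cortical slope of Ndufs4 turned to -0.00069. There too, differences that were never called changed sign: Atp5l (0.040, stress in vehicle mice), Atp5s (-0.0023, averaged esomeprazole) and Sdha (0.019, esomeprazole without stress) in the hippocampus, and in the frontal cortex Ndufa4 (0.0082, stress in esomeprazole mice) and Ndufa6 (-0.10 for esomeprazole without stress and 0.044 for the interaction). The deposited scaling moved the median of all genes for averaged esomeprazole in the hippocampus from -0.0067 to 0.18. Under it Uqcrc2 and Sdha turned to 0.094 and 0.099 there, Sdha to 0.11 without stress and Uqcrc2 to 0.016 after stress. The cause of these changes was not tested. The deposited scaling was not run between tissues, since the tables were scaled separately. Depth limits little here, since spread between libraries exceeded counting error.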
